A study of Mus musculus with 4 samples.

Results

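The replication-dependent histone genes were examined for open chromatin in WT and Med23-deficient hematopoietic stem cells (HSCs). The members were the ATAC-seq peaks whose summit, the base with the most signal in a peak, lay within 1000 bp of the start site of a protein-coding gene with a symbol beginning Hist1h, Hist2h, Hist3h or Hist4h in the GENCODE M21 annotation. They were 36 of the 37887 WT peaks and 39 of the 37615 KO peaks on the autosomes and chromosome X. The annotation holds 67 such genes among 21755 coding genes on these chromosomes. A gene with at least 1 such summit is called open below and a gene with none is called closed, as a description of the peak lists and not of transcription.

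HSCs were sorted from bone marrow of C57BL/6 mice with floxed Med23, a subunit of the Mediator complex that links transcription factors to RNA polymerase II. WT mice carried no cre, and KO mice also carried Mx1-cre, a driver that interferon induces and that acts in the whole blood system and beyond. The study describes poly(I:C), an interferon inducer, as the agent that triggered the deletion, and the sources used here do not state the age of the mice beyond adult or whether the WT mice behind these libraries received it. The labels name 2 samples per genotype, both represented by 1 list, so no value has a replicate check. In such bulk data, a site open in fewer cells and a site less open in each cell cannot be told apart.

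In ATAC-seq a transposase cuts accessible DNA and adds sequencing adapters. For each peak the authors' caller, MACS2, gave the fold enrichment of the summit signal over the local background, together with a −log10 p and a −log10 q. Fold enrichment and −log10 p together fix the pileup, that is the number of reads or fragments stacked at the summit, which was recovered for each peak. The depth of the libraries is unknown from the lists. Of the genes chosen as HSC markers, Kit, Hlf, Meis1 and Fgd5 were open in both lists and Gata2 in the KO list only, while Ly6a, Slamf1, Procr and Mecom were closed in both. Of the markers of other cells, 1 of 4 B cell genes (Ebf1) and the erythroid gene Epor were open in both lists, 1 of 4 T cell genes (Bcl11b) was open in the KO list, and 0 of 4 mature myeloid genes were open in either. Their part in the histone results was not tested.

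Replication-dependent histone genes supply the core histones H2A, H2B, H3 and H4 and the linker histone H1 that package newly copied DNA, and they are transcribed mainly in S phase. Their messages lack introns and a poly(A) tail and end in a conserved stem-loop that SLBP binds. The genes lie in clusters that gather in the nucleus at the histone locus body, where NPAT and FLASH (encoded by Casp8ap2) collect, and many H2A and H2B genes stand head to head as divergent pairs that share a promoter. Adult HSCs are mostly quiescent.

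The sequence of the genes had these features in the reference. A stem-loop of 6 paired bases with a loop of 4 was found within 150 bases after the stop codon in 63 of the 67 genes, and 61 of the 67 records had a single exon. There were 13 divergent pairs whose starts were 175 to 659 bases apart, with a median of 267 bases, and 12 of the 13 joined an H2A gene to an H2B gene. Genes were assigned to clusters where a gap of over 100 kb separated them. The Hist1 group split into Hist1-a with 18 genes (chr13:21715763-21837530 in mm10), Hist1-b with 5 (chr13:22035164-22043676), Hist1-c with 29 (chr13:23531050-23764406) and Hist1-d with 2 (chr13:23933773-23934851). Hist2 held 10 genes (chr3:96219865-96270132), Hist3 held 2 (chr11:58948920-58956830) and Hist4 held 1 (chr6:136801553-136804415).

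The promoters of the open genes with the highest WT fold enrichment in each class are shown first, so that they can be read beside the values of those genes. At Hist1h4m and Hist1h1c the summit lay downstream of the run, 666 and 865 bp past the start in WT. Each run is the reference GRCm38.p6 read 5′ to 3′ on the strand given, without bases that an annotated exon covers. Capitals mark 4 letter strings taken from textbook histone promoters and searched on both strands, namely TATAAA (the TATA box), CCAAT, ATTTGCAT (the octamer bound by Oct-1 at H2B genes) and AAACACA (the AC box of H1 genes). The runs are the bases before Hist1h1c (chr13:23738558-23738806, plus strand), between Hist1h2ah and Hist1h2bk (chr13:22035644-22035820, plus strand), before Hist1h3e (chr13:23562386-23562619, minus strand) and before Hist1h4m (chr13:21811496-21811745, plus strand).
Hist1h1c: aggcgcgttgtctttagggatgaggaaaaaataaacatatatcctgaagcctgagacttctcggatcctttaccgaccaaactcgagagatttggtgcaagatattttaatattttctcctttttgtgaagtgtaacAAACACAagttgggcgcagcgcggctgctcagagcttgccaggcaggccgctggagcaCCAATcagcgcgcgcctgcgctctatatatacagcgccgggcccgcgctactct
Hist1h2ah/Hist1h2bk: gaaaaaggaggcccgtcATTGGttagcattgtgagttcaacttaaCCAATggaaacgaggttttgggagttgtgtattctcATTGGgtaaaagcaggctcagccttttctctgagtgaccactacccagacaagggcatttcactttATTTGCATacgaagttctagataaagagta
Hist1h3e: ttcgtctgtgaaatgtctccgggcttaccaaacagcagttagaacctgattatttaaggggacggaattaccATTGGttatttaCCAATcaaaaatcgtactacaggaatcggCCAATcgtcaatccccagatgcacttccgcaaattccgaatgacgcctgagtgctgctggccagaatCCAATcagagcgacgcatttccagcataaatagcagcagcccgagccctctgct
Hist1h4m: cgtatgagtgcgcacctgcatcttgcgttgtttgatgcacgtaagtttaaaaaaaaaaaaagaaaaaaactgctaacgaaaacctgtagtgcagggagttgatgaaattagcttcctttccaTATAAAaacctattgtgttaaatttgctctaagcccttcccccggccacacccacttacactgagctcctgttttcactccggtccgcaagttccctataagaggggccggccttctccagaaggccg

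The same runs are shown for genes closed in both lists, to set their promoters beside the open ones. They are the bases before the linker histone gene Hist1h1a (chr13:23763416-23763665, plus strand), before Hist1h3h (chr13:21717409-21717627, plus strand), between Hist1h2bq and Hist1h2ao (chr13:21810200-21810366, plus strand) and between the testis genes Hist1h2ba and Hist1h2aa (chr13:23934157-23934436, plus strand).
Hist1h1a: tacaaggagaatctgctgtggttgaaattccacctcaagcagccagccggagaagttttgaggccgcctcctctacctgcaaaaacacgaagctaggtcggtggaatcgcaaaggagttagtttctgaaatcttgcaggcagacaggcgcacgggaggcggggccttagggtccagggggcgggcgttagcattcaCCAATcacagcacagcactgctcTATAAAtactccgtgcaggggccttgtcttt
Hist1h3h: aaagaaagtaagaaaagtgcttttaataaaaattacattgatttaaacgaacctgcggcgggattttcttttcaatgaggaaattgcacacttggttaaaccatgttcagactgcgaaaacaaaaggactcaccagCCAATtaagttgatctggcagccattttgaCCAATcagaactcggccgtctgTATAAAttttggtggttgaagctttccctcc
Hist1h2ao/Hist1h2bq: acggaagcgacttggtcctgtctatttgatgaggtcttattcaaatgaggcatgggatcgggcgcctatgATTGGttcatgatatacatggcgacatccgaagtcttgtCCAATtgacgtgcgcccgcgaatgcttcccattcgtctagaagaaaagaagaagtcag
Hist1h2ba/Hist1h2aa: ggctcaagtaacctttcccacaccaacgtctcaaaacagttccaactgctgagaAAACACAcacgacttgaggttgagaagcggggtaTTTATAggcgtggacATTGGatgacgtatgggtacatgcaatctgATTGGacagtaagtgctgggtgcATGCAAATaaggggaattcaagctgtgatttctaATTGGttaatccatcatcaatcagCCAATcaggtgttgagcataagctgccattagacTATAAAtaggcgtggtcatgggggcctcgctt

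Matches were present in both open and closed promoters, as named by the position of the summit. This naming is not the same as accessibility of the run. The runs before the closed genes Hist1h1a and Hist1h3h lay inside peaks of both lists. That before the open gene Hist1h4m lay outside its KO peak and mostly outside its WT peak. The run before the closed gene Hist1h1a had a TATAAA that began 31 bases before the start and a CCAAT that began 54 bases before it. The run of the closed testis pair held 8 matches in 280 bases. That of the open pair Hist1h2ah/Hist1h2bk held 4 in 177 bases, after 124 bases of exon were left out, and the full 250-base windows of both genes also hold a TATAAA. In the 250 bases before the start, CCAAT was found in 80.6% of histone genes and 35.8% of all coding genes, TATAAA in 50.7% and 11.5%, the octamer in 22.4% and 1.46%, and AAACACA in 11.9% and 5.69%. CCAAT was present before 18 of 18 H2A and 18 of 18 H2B genes but 4 of 13 H4 genes. The octamer was found before 7 H2A and 8 H2B genes and 0 of the others, with the window largely shared inside divergent pairs, and AAACACA before 4 of 6 H1 genes. CCAAT was present before 35 of the 44 genes open in both lists and 11 of the 13 closed ones. Median GC content of these windows was 44.4% for histone genes and 54% for all coding genes. A match is a description of the letters and was not shown to be a bound site.

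Most histone genes were open in both genotypes. In the WT list 48 of 67 (71.6%) were open, against 55.7% of all coding genes, and in the KO list 50 of 67 (74.6%), against 55.3%. The lists shared 44 open genes, and 13 genes were closed in both. There were 4 genes open in the WT list only, or 5.97% of the 67, where 3.3% of all coding genes were open in WT only. There were 6 genes open in the KO list only, or 8.96%, where 2.93% of all coding genes were open in KO only.

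The Hist1 group had 38 of 54 genes open in WT and 39 in KO. In Hist1-a, 12 of 18 genes were open in WT and 11 in KO. In Hist1-b, 4 of 5 were open in WT and 5 of 5 in KO. In Hist1-c, 22 of 29 were open in WT and 23 in KO. Hist1-d, which holds only the testis genes Hist1h2ba and Hist1h2aa, had 0 of 2 open in either list. In Hist2, 7 of 10 genes were open in WT and 8 in KO, and the genes of Hist3 and Hist4 were open in both lists. The 3 testis histone genes, with Hist1h1t, were all closed, which left 48 of 64 other genes open in WT and 50 of 64 in KO.

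**Figure D1:**
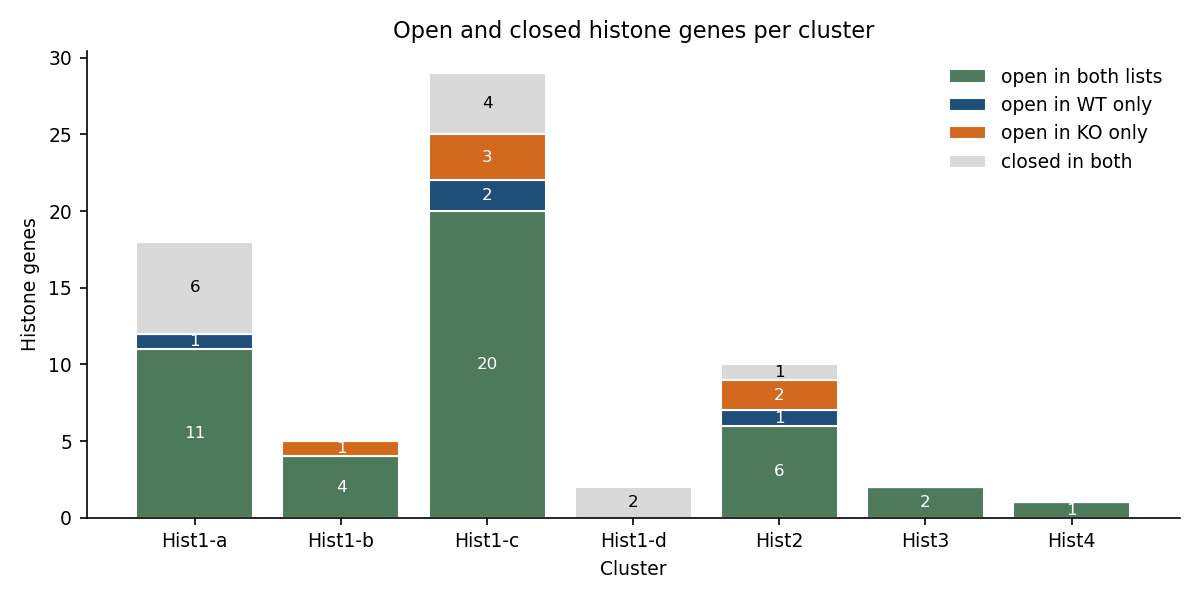
Number of histone genes (vertical axis) in each cluster (horizontal axis), stacked by whether a summit lay within 1000 bp of the start in both lists, 1 list or neither. Hist1-c holds 20 genes open in both lists, Hist1-a holds 11, and the 2 genes of Hist1-d are closed in both.

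By class, the core histone genes were mostly open and the H1 genes mostly not. H4 had 12 of 13 genes open in each list, H2B 14 of 18 in WT and 15 in KO, H2A 12 of 18 in WT and 15 in KO, and H3 8 of 12 in WT and 7 in KO. Only 2 of 6 H1 genes were open in WT and 1 in KO. For H1 this depended on where the summit stood, because the start base itself lay inside a peak for 4 of 6 H1 genes in both lists. Over all classes the start base lay inside a peak for 54 of 67 genes in WT and 53 of 67 in KO. Among all coding genes the shares were 50.3% in WT and 50.2% in KO. The lists then differed at 5 histone genes. These were 3 of the 67 in WT only and 2 of the 67 in KO only. Of all coding genes, 3.13% stood in WT only and 2.94% in KO only.

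The clusters other than Hist1-d, which held 0 peaks in either list, were dense in peaks. Each span runs from the first to the last histone gene, so it is dense in gene starts too. The densities below make no allowance for that. With 1000 bp added on each side, the Hist1-a span of 122 kb held 11 WT and 9 KO peaks, 9 and 8 of them at histone starts. The Hist1-c span of 233 kb held 21 WT and 24 KO peaks, of which 16 and 19 were at histone starts. These densities were 88.9 and 72.7 peaks per Mb in Hist1-a and 89.2 and 102 in Hist1-c, against 14.4 and 14.3 over the genome. The peaks of Hist1-c away from the annotated histone starts were the same 5 in each list by overlap. Among them were peaks over the start codons of Hist1h1d and Hist1h2be, whose records begin further upstream. They also included 1 at the start of Hfe, a regulator of iron uptake that lies inside the cluster, with a pileup of 18 in WT and 22 in KO.

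**Figure D2:**
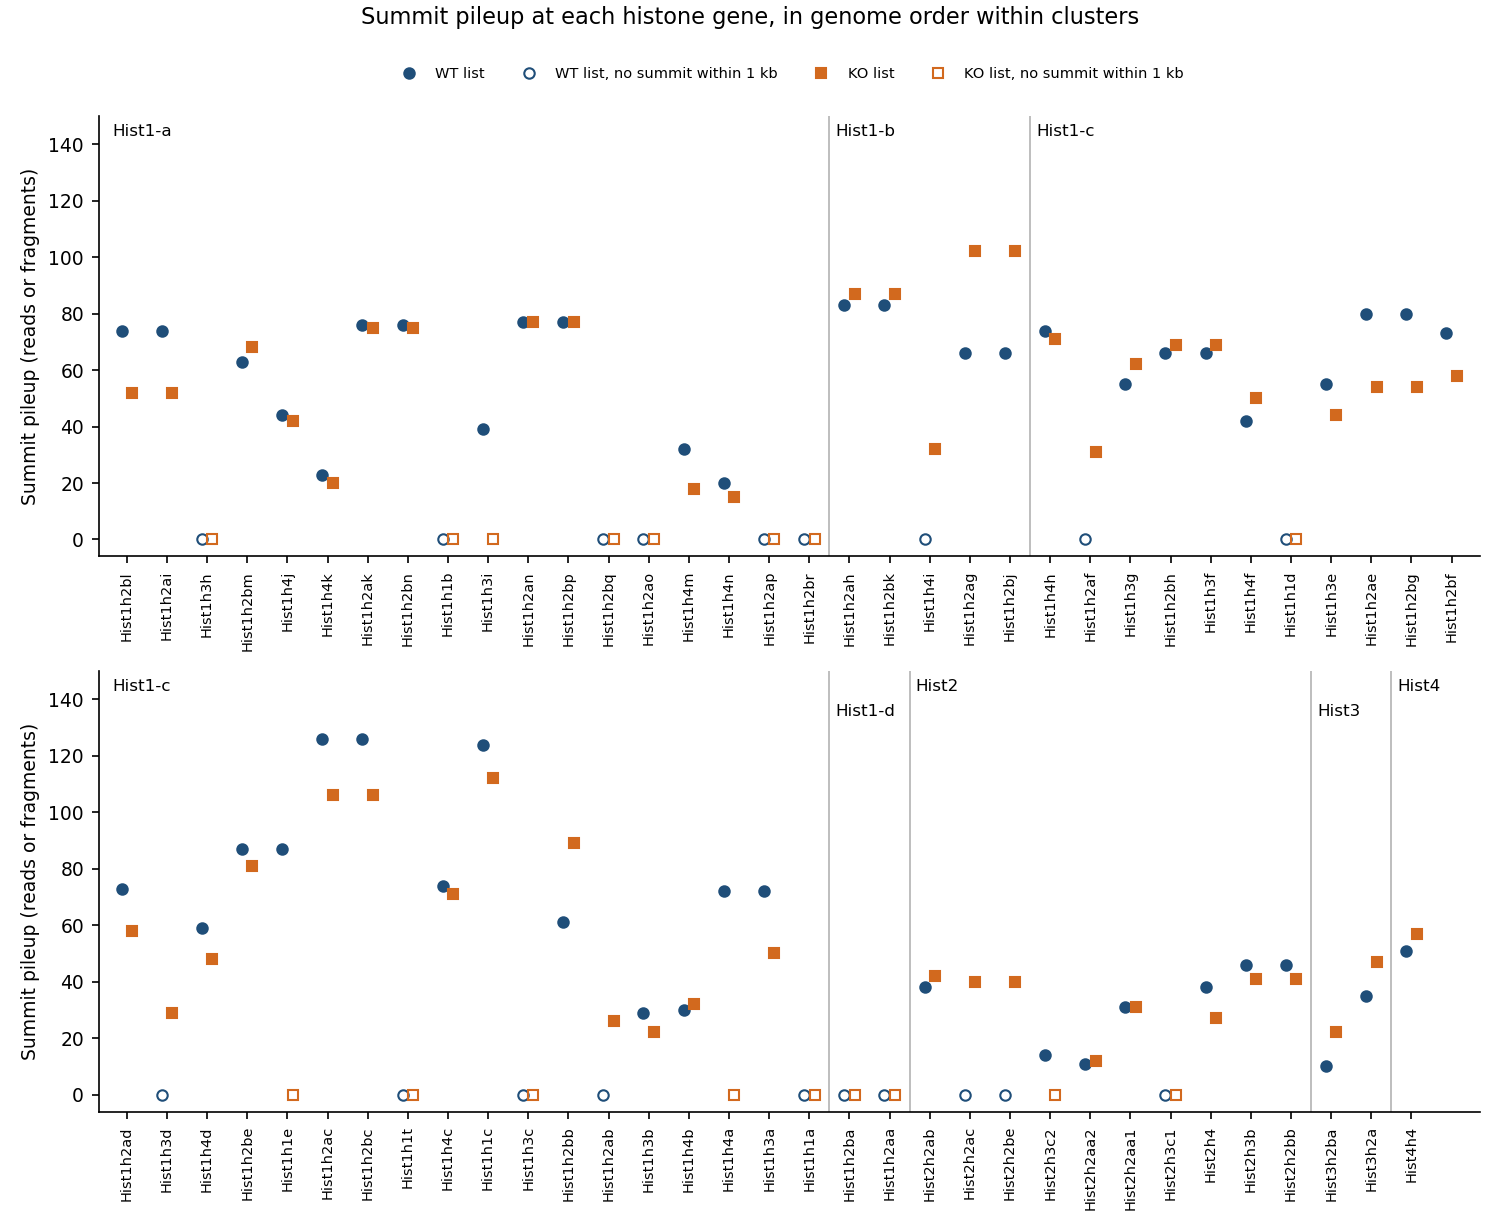
Pileup at the highest summit within 1000 bp of each of the 67 histone genes (vertical axis, reads or fragments), in genome order within clusters, for the WT list (circles) and the KO list (squares), with open symbols at 0 for genes with no summit. The highest values, 126 in WT and 112 in KO, are in Hist1-c, and the open symbols of both lists coincide at 13 genes.

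Histone peaks were tall and wide, but stood on a high local background. The median pileup of the 36 WT peaks was 55 (range 10 to 126), against 32 for peaks at all coding starts and 18 for all peaks, and the median of the 39 KO peaks was 48 (range 12 to 112), against 32 and 19. Histone peaks spanned a median of 1340 bp in WT against 926 bp at all coding starts, and of 1051 bp against 913 bp in KO. The local background at histone summits had a median of 6.85 in WT and 5.32 in KO, against 3.04 and 2.42 at coding starts. The median fold enrichment was lower than at coding starts, 7.27 against 8.16 in WT and 8.78 against 9.63 in KO. A histone peak stood at the median percentile 60.8 of the WT list by fold enrichment and 90.8 by pileup, and at 63.1 and 86.2 of the KO list.

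The highest fold enrichment in WT was at Hist1h4m, 14.1 with a pileup of 32 over a local background of 1.34. It was followed by Hist1h2ah/Hist1h2bk at 11.4 (pileup 83), Hist1h3e at 11.2 (55), Hist1h4c at 10.8 (74) and Hist1h2an/Hist1h2bp at 10.3 (77). In KO the order was Hist1h2bm at 13.6 (68), Hist1h2ah/Hist1h2bk at 13.5 (87), Hist1h2ag/Hist1h2bj at 13.3 (102), Hist1h4c at 12.98 (71) and Hist1h1c at 12.8 (112). The shared promoter of Hist1h2ah and Hist1h2bk and that of Hist1h4c were among the top 5 in both lists. The tallest peaks by pileup were those of Hist1h2ac/Hist1h2bc, 126 in WT and 106 in KO, and of Hist1h1c, 124 and 112.

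The divergent H2A and H2B pairs shared peaks. In 8 of the 12 pairs both genes were open in both lists under 1 shared peak, and its summit lay between the starts in 7 of the 8 pairs in WT and in 8 of 8 in KO. Pileup at these 8 pairs ranged from 66 to 126 in WT (median 76.5) and from 52 to 106 in KO (median 76). At the genes without a divergent histone partner that were open in both lists, the median was 44 in each list, with a range of 10 to 124 in WT and 12 to 112 in KO. Of the other 4 pairs, Hist2h2ac/Hist2h2be met the criterion in KO alone and 3 were closed, namely the testis pair and the pairs Hist1h2bq/Hist1h2ao and Hist1h2br/Hist1h2ap. The pair Hist1h2bh/Hist1h3f, which joins an H2B to an H3 gene, had a pileup of 66 in WT and 69 in KO. Its WT summit lay between the starts and its KO summit did not. These summits were 841 bp apart, so the values are heights of different sites.

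Summits sat upstream of H2A and H2B genes and on either side of the other classes. Upstream summits were found at 11 of 12 open H2A and 13 of 14 open H2B genes in WT, and at 14 of 15 and 15 of 15 in KO. For H4 it was 5 of 12 in WT and 6 of 12 in KO, and for H3 3 of 8 and 5 of 7. Of all open histone genes, 66.7% in WT and 80.0% in KO had an upstream summit, against 50.4% and 51.2% of open coding genes. These shares count genes, and a summit between the starts of a divergent pair is upstream of both and counted for each. The part of this layout in the difference was not tested. The summits at 9 open genes in WT and 6 in KO lay past the stop codon. They included those of Hist1h1c 186 and 215 bp past it, of Hist4h4 184 and 229 bp past it, of Hist1h4h 293 and 288 bp past it, and of Hist1h4m 317 and 304 bp past it. Hist1h4j was the converse, with its summit 748 bp upstream of the start in both lists. The summit was the same base in both lists at Hist1h4j, Hist1h4c and Hist3h2a.

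**Figure D3:**
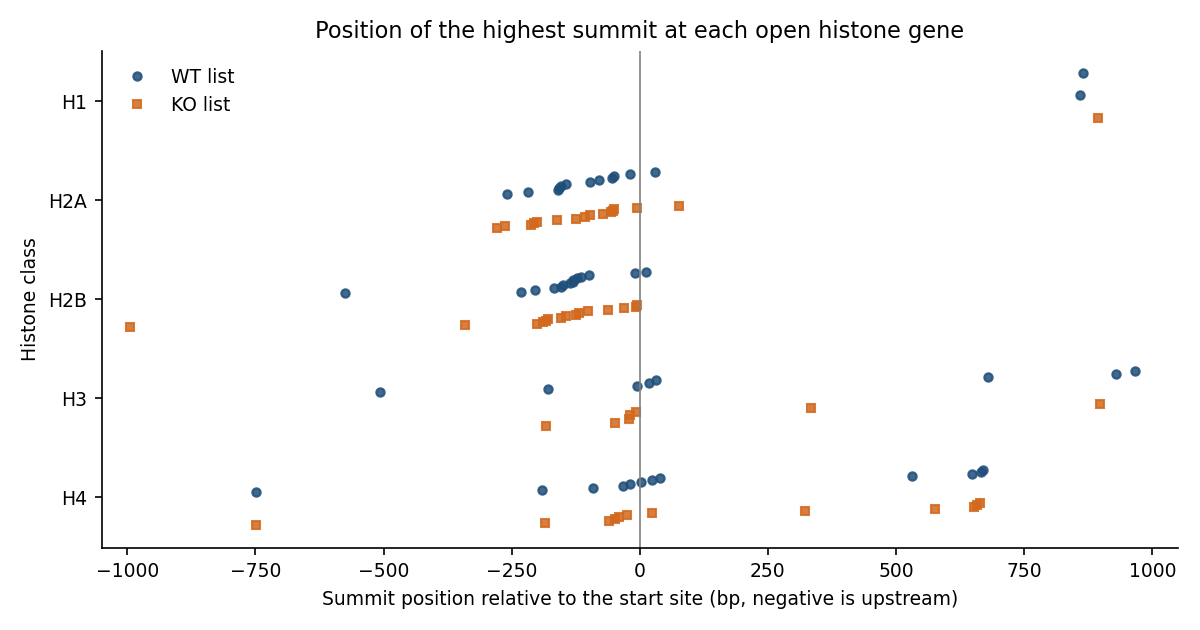
Distance in bp from the start site to the highest summit (horizontal axis, negative upstream) for open genes of each class (vertical axis), in the WT list (circles) and the KO list (squares). H2A and H2B summits lie almost all upstream, while H4 has a group between 531 and 669 bp downstream in WT.

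The linker histone genes had summits near the limit of 1000 bp and are described singly. Hist1h1c had a WT summit 865 bp and a KO summit 894 bp downstream of its start, with fold enrichments of 8.82 and 12.8. Hist1h1e had a WT summit 859 bp downstream (fold enrichment 8.17, pileup 87), in a peak that also served the start of the Hist1h2be record, and the nearest KO summit was 1092 bp away. The Hist1h2be record begins 35168 bp before its start codon, so its call and its pileups of 87 in WT and 81 in KO rest on this peak, while another peak of each list, with pileups of 46 and 55, covered the start codon. Hist1h1b had its nearest summits 1193 bp away in WT and 1084 bp in KO, downstream of the start, both with a pileup of 50. Hist1h1d had none within 1565 bp, but its annotated record begins 1828 bp before the start codon, and from the start codon a WT summit with a pileup of 44 lay within the limit. Hist1h1a lay at the edge of the wide peaks over Hist1h3a and Hist1h4a, with the nearest summits 2246 and 1232 bp away. Hist1h1t, the testis H1 gene, had its nearest summit 2616 bp away in both lists, and its start lay in no peak.

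The 13 genes closed in both lists included the 3 testis genes Hist1h1t, Hist1h2ba and Hist1h2aa. Hist1h2ba and Hist1h2aa had their nearest summits 19851 and 20157 bp away in WT and 35693 and 35999 bp away in KO, and Hist1h1t 2616 bp away in both. Another 5 genes, Hist1h3h, Hist1h1b, Hist1h3c, Hist1h1a and Hist1h1d, had a summit 1017 to 2246 bp away in WT and 1070 to 1565 bp away in KO, and 4 of them, all but Hist1h1d, had a base of a peak within 1000 bp in both lists. Hist1h3c missed the limit by little, with summits 1017 bp away in WT and 1070 bp in KO. The last 5 were Hist1h2bq, Hist1h2ao, Hist1h2ap, Hist1h2br and Hist2h3c1, and for these the reference sequence itself is duplicated.

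Reads from duplicated sequence may have no unique place, so the copies were measured in the reference. Hist1h2bq, Hist1h2ao and Hist1h4m lie in a segment whose second copy holds Hist1h2br, Hist1h2ap and Hist1h4n. The upstream bases of Hist1h2bq and Hist1h2br were identical over 248 bases, and those of Hist1h2ao and Hist1h2ap over 220. Over the 250 upstream bases Hist1h4m and Hist1h4n were identical, and over the first 400 bases of the record they were 99.8% identical. Hist2h3c1 and Hist2h3c2 were 99.6% identical over 235 upstream bases. The 250 bases before the start were at least 75% made of 32-base strings found more than once in the reference at 10 genes, of which 5 were open in WT, 4 in KO and 5 in neither. Of the other 57 genes, 43 were open in WT, 46 in KO and 8 in neither. How the authors' aligner placed such reads is not given in the sources used here, and the part of mapping in these calls was not tested.

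**Figure D4:**
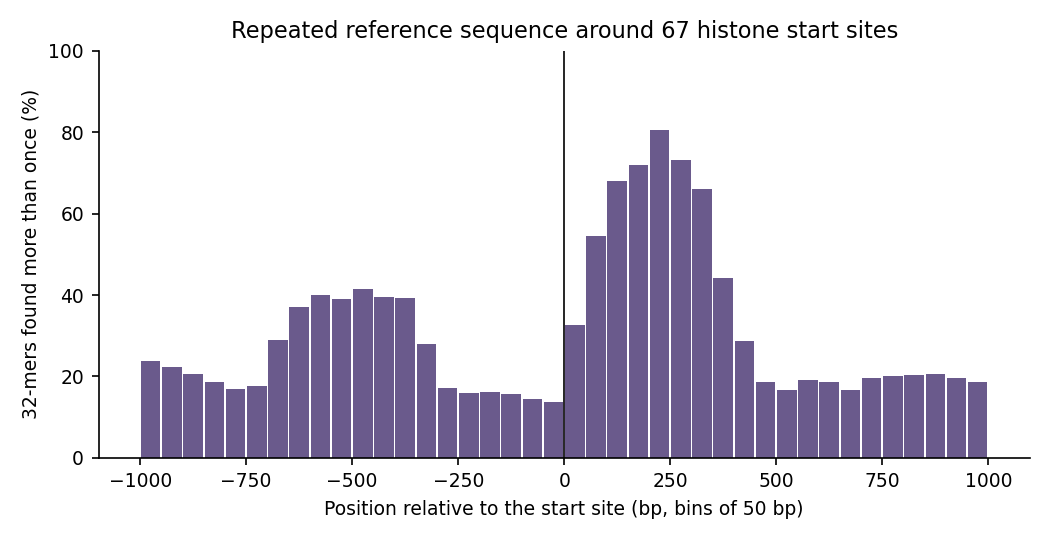
Percentage of 32-base strings that occur more than once in the reference (vertical axis) by position around the 67 histone start sites (horizontal axis, bins of 50 bp). The share is 13.7% just before the start and reaches 80.5% in the bin that begins 200 bp downstream. On the upstream side it reaches 41.4% in the bin that begins 500 bp before the start.

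Repeated sequence was not spread evenly around the starts. The median gene had 0% repeated 32-base strings in the 250 bases upstream and 69.5% in the first 400 bases of the record, where the coding sequence lies. The bases just before the start were thus mostly unique and the coding side mostly shared among copies. Further upstream the share of repeated strings rose again, to 41.4% in the bin that begins 500 bp before the start. At Hist1h4h, whose summits lay past the stop codon, 54.5% of the strings in the first 400 bases were repeated. At Hist4h4, whose summits also lay past it, 0.25% were.

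Of the 4 genes open in WT only, 2 had no KO peak within 1000 bp. The WT peak at Hist1h3i, an H3 gene, had a fold enrichment of 3.43, a pileup of 39 and a −log10 q of 8.72, with the nearest KO summit 3829 bp away. The WT peak at Hist2h3c2 was 6.33-fold over background with a pileup of 14, and its summit lay 679 bp downstream of the start. The 250 bases before the Hist2h3c2 start were 87.2% repeated and the 1000 bases after it 63.5%. The other two were Hist1h1e and Hist1h4a, where the nearest KO summits were 1092 and 1204 bp away and a KO peak covered the start base. The Hist1h4a peak was 2733 bp wide in WT, 5.79-fold over background with a pileup of 72, and the KO peak over it was 3038 bp wide with its summit near Hist1h3a.

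Of the 6 genes open in KO only, 1 had no WT peak base within 1000 bp. This was Hist1h3d, 3.70-fold over background in KO with a pileup of 29, and the nearest WT summit was 1437 bp away. Hist1h2af was at 3.25-fold with a pileup of 31 in KO, in a peak that overlapped no WT peak, although a WT peak came within 1000 bp. Hist1h4i had 3.75 and 32, and Hist1h2ab 3.74 and 26, and at both a wider WT peak covered the start base. The divergent pair Hist2h2ac/Hist2h2be had a KO peak of 8.44-fold and a pileup of 40, where the single WT peak of 2211 bp that covered both starts had its summit near Hist2h2ab. Counted by any base of a peak within 1000 bp, 57 of 67 histone genes were open in WT and 56 of 67 in KO. Of all 21755 coding genes, 12583 (57.8%) were open in WT by this count and 12472 (57.3%) in KO. There were then 2 of the 67 in WT only (Hist1h3i and Hist2h3c2) and 1 of the 67 in KO only (Hist1h3d). The shares over all coding genes were 2.92% in WT only and 2.41% in KO only.

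By overlap of peaks, 34 of 36 WT histone peaks (94.4%, 95% Wilson interval 81.9 to 98.5%, counting error only) overlapped a KO peak, and 37 of 39 KO peaks (94.9%, 83.1 to 98.6%) overlapped a WT peak. The shares at all coding starts were 94.1% and 94.9%. The peaks without overlap were those of Hist1h3i and Hist2h3c2 in WT and of Hist1h2af and Hist1h3d in KO.

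The heights of paired peaks were compared next. For a gene open in both lists the highest peak of each list was taken, which gave 34 separate pairs for the 44 genes. The peaks of a pair overlapped, but their summits could lie apart. The KO to WT ratio was that of the pileups, each divided by the genome-wide background of its list, on the log2 scale and with no pseudocount. Over the 34 histone pairs the median log2 ratio was 0.03 (SD 0.38 over pairs), and over 10136 pairs at coding starts it was 0.09 (SD 0.36). Above the coding median stood 13 histone pairs, below it 19, and 2 equalled it. Against all coding pairs of a like summed pileup, 3561 in number, the median was 0.12. The sign of the histone median depended on the scaling, since raw pileups gave −0.060 and the fold enrichments 0.31 (0.28 over coding pairs), so no direction is read from it.

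**Figure D5:**
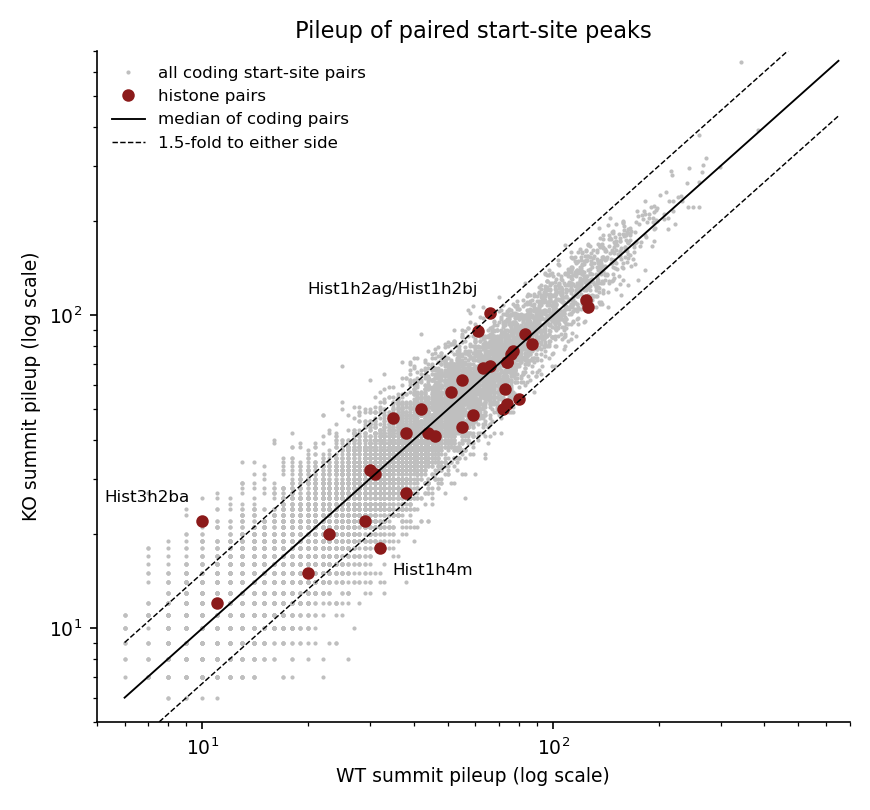
KO pileup (vertical axis, log scale) against WT pileup (horizontal axis, log scale) for paired start-site peaks of all coding genes (grey) and of histone genes (red), with the median ratio of coding pairs (solid line) and 1.5-fold to either side (dashed lines). Of 34 histone pairs, 2 lie above the upper and 1 below the lower dashed line.

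Past 1.5-fold on the higher side of the coding median were 2 of 34 histone pairs (5.88%), against 4.49% of coding pairs, and on the lower side 1 (2.94%), against 5.08%. The higher 2 were Hist3h2ba, with a pileup of 10 in WT and 22 in KO (log2 ratio 1.22, exact binomial 95% interval 0.09 to 2.47), and the divergent pair Hist1h2ag/Hist1h2bj, with 66 and 102 (0.71, 0.25 to 1.18). The WT peak over Hist1h2ag/Hist1h2bj was 3289 bp wide and also covered Hist1h4i, and the KO list had separate peaks there, of 1770 and 578 bp. The lower one was Hist1h4m in the duplicated segment, with 32 and 18 (−0.74, −1.66 to 0.13), and its copy Hist1h4n had 20 and 15 (−0.33, −1.40 to 0.71). Intervals cover counting error only, and those of Hist3h2ba and Hist1h4m held the coding median. Hist1h2bb was next on the higher side, with 61 and 89 (0.63, 0.14 to 1.13). On the lower side Hist1h2ae/Hist1h2bg had 80 and 54 (−0.48, −1.01 to 0.03), and Hist1h3a had 72 and 50 (−0.44, −0.99 to 0.10). The WT summit of Hist1h3a lay 966 bp downstream of its start and the KO summit 48 bp upstream. These summits were 1014 bp apart, so the Hist1h3a values are heights of different sites.

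The ratio was then summarised by class and cluster. The median log2 ratio was 0.09 over 12 H2A pairs, 0.08 over 14 H2B pairs, 0.02 over 11 H4 pairs and −0.16 over 6 H3 pairs, where a divergent pair counts in both of its classes. Hist1h1c, the only H1 pair, had −0.06 (−0.44 to 0.32). By cluster it was −0.05 over 8 pairs of Hist1-a, −0.04 over 16 of Hist1-c and 0.09 over 5 of Hist2. The small groups were higher, with 0.43 over 2 pairs of Hist1-b and 0.87 over 2 pairs of Hist3. In Hist3, Hist3h2a had a pileup of 35 in WT and 47 in KO (0.51, −0.15 to 1.19), in a region that also serves Trim17. Hist4h4 had 51 and 57 (0.25, −0.32 to 0.82).

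Genes that encode histones outside the clusters were set beside the members. So were genes for histone supply, which make and process histone messages or handle the histone proteins. Of 11 replication-independent histone variants 8 were open in both lists, among them H2afz, H3f3a and Cenpa, while H1fx, H2afy2 and H3f3b had no summit within 1000 bp of the record's 5′ end. Of 17 genes for histone supply 16 were open in both, all but Zfp473. Npat, the histone locus body factor, had a pileup of 64 in WT and 62 in KO (log2 ratio 0.04). Casp8ap2 had 88 and 115 (0.47, 0.06 to 0.89), and Slbp had 47 and 59 (0.41, −0.16 to 1.00). The intervals of Casp8ap2 and Slbp held the coding median. Chaf1b, a subunit of the chromatin assembly factor, had 34 and 21 (−0.61, −1.47 to 0.22), and 6 of the 16 supply genes stood above the coding median. The median log2 ratio was 0.0014 over the 8 variants and 0.020 over the 16 supply genes.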

How the data were processed

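ATAC-seq was made from 5000 sorted HSCs per sample, with 30 min of transposition (LSK CD150+CD34-CD48- per the labels). The study's ATAC-seq methods give LSK CD150+CD48- and do not name CD34. The authors used Trim Galore for adapters, Bowtie2 for alignment to mm10, Picard against duplicate and mitochondrial reads, and MACS2 with no fragment model for peaks. Versions, the extension size and whether both samples of a genotype were pooled are not given in the sources used here. The deposited fold enrichment is a ratio over the local background. The deposited −log10 p and −log10 q are those of the summit. The deposited display score was not used.

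Pileup and local background were solved from fold enrichment and −log10 p under the caller's Poisson model, and 99.99% of peaks in either list fitted a whole number within 0.001 on the −log10 scale. The genome-wide background was the median of the 1000 lowest values. The method was tested on simulated data. Start sites were the 5′ ends of GENCODE M21 gene records on 19 autosomes and chromosome X. Sequence came from GRCm38.p6, the build of the files. Repeated 32-base strings were counted on both strands of the chromosomes. Printed runs leave out exons of GENCODE or RefSeq. Clusters were split at gaps over 100 kb. The members, gene lists and clusters were chosen with earlier results of these data known. Genes named were those closed in both lists, those open in 1 list, the 5 with the highest fold enrichment per list, the H1, Hist3 and Hist4 genes, the 3 highest and 3 lowest ratios, and members of the fixed lists. Some cell type markers are not reported here. Hist1h4n, Hist1h4h, Hist1h4j, Hfe, Chaf1b and the tallest and divergent pairs were added after their values were seen. There is 1 list per genotype, so no test between genotypes was made. Python 3.11.15, pandas 2.3.3 and scipy 1.17.1 were used.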

Additional observations from a re-analysis of the deposited data

How the results depend on the processing

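No paired analysis was possible because 1 list stands for both numbered samples of a genotype, with no list for a single replicate, and no replicate could be left out for that reason. Counts of open genes (48 in WT and 50 in KO) were 36 and 42 at 500 bp, 64 and 63 at 2500 bp, 42 and 43 at a −log10 q of at least 10, and 48 and 50 from the start of any transcript. With the first base of the start codon, an alternative chosen after seeing the data, they were 49 and 49. Genes in 1 list only were most affected. The 4 in WT only became 1 within 2500 bp and 2 by any base of a peak, and the 6 in KO only became 0 and 1. Other settings raised them, to 9 in KO only at 500 bp, 8 in KO only at a −log10 q of at least 5, and 6 in WT only from the start codon. With the start base inside a peak, also chosen after seeing the data, those in KO only became 2. Shares over all coding genes are not given for the other distances, the −log10 q limits, any transcript start or the start codon. The counts at those settings are therefore not read as particular to histone genes. Overlap fell from 94.4% to 75% of WT peaks and from 94.9% to 69.2% of KO peaks where summits had to lie within 100 bp. At all coding starts the shares within 100 bp were 67.9% of WT peaks and 68.3% of KO peaks. The median log2 ratio of 0.03 reversed to −0.060 from raw pileups and to −0.060 after subtraction of the coding median, and was 0.31 from the fold enrichments, where the coding pairs had a median of 0.28. Its sign therefore depends on the scaling. It was 0.026 in 31 regions with 1 peak of each list, and 0.026 in 30 pairs after those with repeated upstream sequence were left out, an alternative chosen after seeing the data. The median percentile by fold enrichment, 60.8 in WT and 63.1 in KO, was 84.9 and 80.1 by −log10 p and 90.8 and 86.2 by pileup.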

Other observations

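The unit of open chromatin in the clusters was often a peak and not a gene. Of the member peaks, 12 of 36 in WT and 11 of 39 in KO served 2 histone genes each. At 1 locus, a WT peak of 3289 bp over Hist1h4i, Hist1h2ag and Hist1h2bj corresponded to KO peaks of 1770 and 578 bp.

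Away from the starts of all histone records, 2 peaks of each list lay within the long record of Hist1h2be. The first covered its start codon, with a pileup of 46 in WT and 55 in KO, and the second had 16 and 15.

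H2afj, the replication-independent H2A variant next to Hist4h4 on chromosome 6, had a pileup of 72 in WT and 78 in KO, above the 51 and 57 of Hist4h4.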
